A study of Mus musculus with 8 samples.

Results

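The epidermal growth factor (EGF) family ligands and their ERBB receptors were examined in mouse corneas through 18 probe sets of 45101 on the array. All probe sets that the annotation assigns to only 1 of 8 listed genes were taken, whatever their values. They cover 7 of the 8 genes, among 18193 genes with a named probe set: 7 probe sets for Egfr, 3 for Tgfa, 2 each for Hbegf, Btc and Erbb3, and 1 each for Ereg and Erbb2. The annotation used here assigned no probe set to Areg (amphiregulin), which was not analysed here. RNA came from corneas of mice that overexpress TGF-beta (TGFB, 4 arrays) and from corneas of their wildtype littermates (4 arrays). The labels give TRizol extraction for every array and do not state the TGF-beta isoform, the promoter, the strain, the age or whether an array holds 1 animal. The p-values given here therefore cover array-to-array variation that may be technical, and not necessarily variation between mice.

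EGF family ligands are made as membrane-anchored precursors, and metalloproteases such as ADAM17 release the active growth factor. HB-EGF, transforming growth factor alpha (Tgfa), betacellulin (Btc) and epiregulin (Ereg) bind the receptor EGFR, and HB-EGF, betacellulin and epiregulin also bind ERBB4. ERBB2 has no known ligand and works as a dimer partner, while ERBB3 binds neuregulins and has little kinase activity of its own. In the cornea, EGFR signalling is known for driving epithelial migration and proliferation after wounding. Ereg, Areg, Epgn and Btc are neighbours on chromosome 5 in the RefSeq annotation of GRCm38.p6.

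Markers of other tissues differed widely between the arrays. The 7 of 7 measured markers of cornified epidermis summed to signals of 1049 to 45220 in TGFB arrays and 712 to 24640 in wildtype arrays. TGFB 1, TGFB 2 and wildtype 2 stood far above the other 5 arrays in this sum (24640 to 45220, against 712 to 1551), and no marker was listed at 0. The 5 of 5 lens markers ran the other way, with sums of 45.3, 69.8 and 106 in TGFB 1, TGFB 2 and wildtype 2 against 589.9 to 17380 on the other 5 arrays, and no lens marker was listed at 0. Between the groups, the mean of the cornified list gave p = 0.286 in an exact permutation test (two-sided, 0.409 adjusted over 10 marker lists, with 0.0286 the smallest unadjusted p possible). The 8 of 8 corneal and basal epithelial markers summed to 14140 to 18680 in TGFB arrays and 7003 to 15890 in wildtype arrays, with the lowest sum in wildtype 4. The corneal keratin Krt12 was low in TGFB 1 (signal 289) and in wildtype 4 (562), against 3008 to 5766 elsewhere, but the list was not uniform. In TGFB 1, Pax6 (127) and Aldh3a1 (52.5) were low too, while Krt5 (6103), Krt14 (4872) and Trp63 (1090) were not. By group, 5 of the 8 were higher and 3 lower in mean in TGFB arrays. Krt14 and Epcam were higher there without overlap, as were 1.49% of all genes. The 5 of 5 keratocyte markers summed to 15810 to 20340 in TGFB arrays and 19640 to 33660 in wildtype arrays, and wildtype 4 had the highest sum. The 5 of 5 conjunctival markers summed to 507 to 1883 in TGFB arrays and 1312 to 4497 in wildtype arrays. The 6 of 6 pigment cell markers summed to 3103 to 14610 in TGFB arrays and 14280 to 30060 in wildtype arrays. The means of the conjunctival, keratocyte and pigment cell lists were lower in TGFB arrays by log2 differences of -0.82, -0.58 and -1.76, each with p = 0.0571 in the exact permutation test (0.19 adjusted). The other 6 lists gave exact p of 0.143 to 0.886. Among them, the 5 of 5 skeletal muscle markers were high on every array, with sums of 14460 to 23450 in TGFB arrays and 19230 to 23600 in wildtype arrays. The part of these tissues in the values of the EGF family and ERBB genes was not tested. The Gapdh 3'/5' ratio, a measure of RNA decay, was 2.88 to 3.55 in TGFB arrays and 2.19 to 6.41 in wildtype arrays, where wildtype 4 had the 6.41. In whole tissue, fewer cells of a type and less RNA per cell cannot be told apart.

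The upstream windows of 3 genes are shown because Btc and Erbb2 were higher on the same 3 arrays and Egfr was not. Of the 7 genes, Tgfa, Btc, Egfr and Erbb2 matched the RefSeq promoter table of GRCm38.p6. Each window holds the 250 bases before the start site, printed 5' to 3' on the gene's strand, with motif matches in capitals.
Btc, chr5:91402995-91403244, minus strand: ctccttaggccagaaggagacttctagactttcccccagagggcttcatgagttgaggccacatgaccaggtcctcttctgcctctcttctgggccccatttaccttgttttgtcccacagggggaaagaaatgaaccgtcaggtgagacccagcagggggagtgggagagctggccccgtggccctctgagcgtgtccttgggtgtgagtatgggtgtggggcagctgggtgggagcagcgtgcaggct
Erbb2, chr11:98412234-98412483, plus strand: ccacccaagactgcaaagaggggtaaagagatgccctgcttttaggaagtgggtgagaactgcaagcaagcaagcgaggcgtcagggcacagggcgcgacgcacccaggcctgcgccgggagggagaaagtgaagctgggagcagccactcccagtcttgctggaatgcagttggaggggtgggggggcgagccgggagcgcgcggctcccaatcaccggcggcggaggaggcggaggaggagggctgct
Egfr, chr11:16751953-16752202, plus strand: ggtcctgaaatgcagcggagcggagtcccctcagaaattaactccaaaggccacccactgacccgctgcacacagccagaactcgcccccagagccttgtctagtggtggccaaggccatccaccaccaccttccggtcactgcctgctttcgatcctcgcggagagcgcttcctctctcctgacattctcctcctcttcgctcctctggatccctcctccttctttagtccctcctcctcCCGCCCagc
A total of 4 motifs were searched on both strands: TATAAA (the TATA box), TGANTCA (AP-1), GTCTAGAC (the SMAD palindrome) and GGGCGG (the GC box). They occur in 12.4%, 6.75%, 0.167% and 32.7% of 32851 windows of the same length. Egfr held 1 GC box, 9 bases before the start site, and Btc and Erbb2 held no match to any of the motifs. Tgfa, not printed here, held 2 GC boxes. The motifs do not overlap each other, and a match describes only the letters of the window. GC content was 59.6% for Btc, 66.0% for Erbb2 and 60.8% for Egfr, against a median of 52.4% over all windows.

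Between TGFB and wildtype corneas, none of the 18 probe sets passed the threshold of limma adjusted p under 0.05, and neither did any of the 45037 probe sets tested (percent called 0). At an unadjusted p under 0.05 the count was 0 of 18, against 5.86% of all probe sets. The groups overlapped for each of the 18, while 3.28% of all probe sets did not overlap. Differences below are TGFB minus wildtype on the log2(signal + 16) scale, which understates the change of dim probe sets, and SE is the moderated standard error. The median difference was 0.073 over the 18 probe sets and 0.0090 over all probe sets. The mean was higher in TGFB arrays for 13 probe sets and lower for 5, against 51.6% and 48.4% of all probe sets. By the brightest probe set of each gene, the unit of the pathway lists below, the median was 0.32 over the 7 genes. All 7 were higher in mean, against a median of -0.014 and 47.4% higher over all genes. The 7 were not tested as a set. Adjusted p ran from 0.872 to 0.996 over the 18 probe sets.

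**Figure D1:**
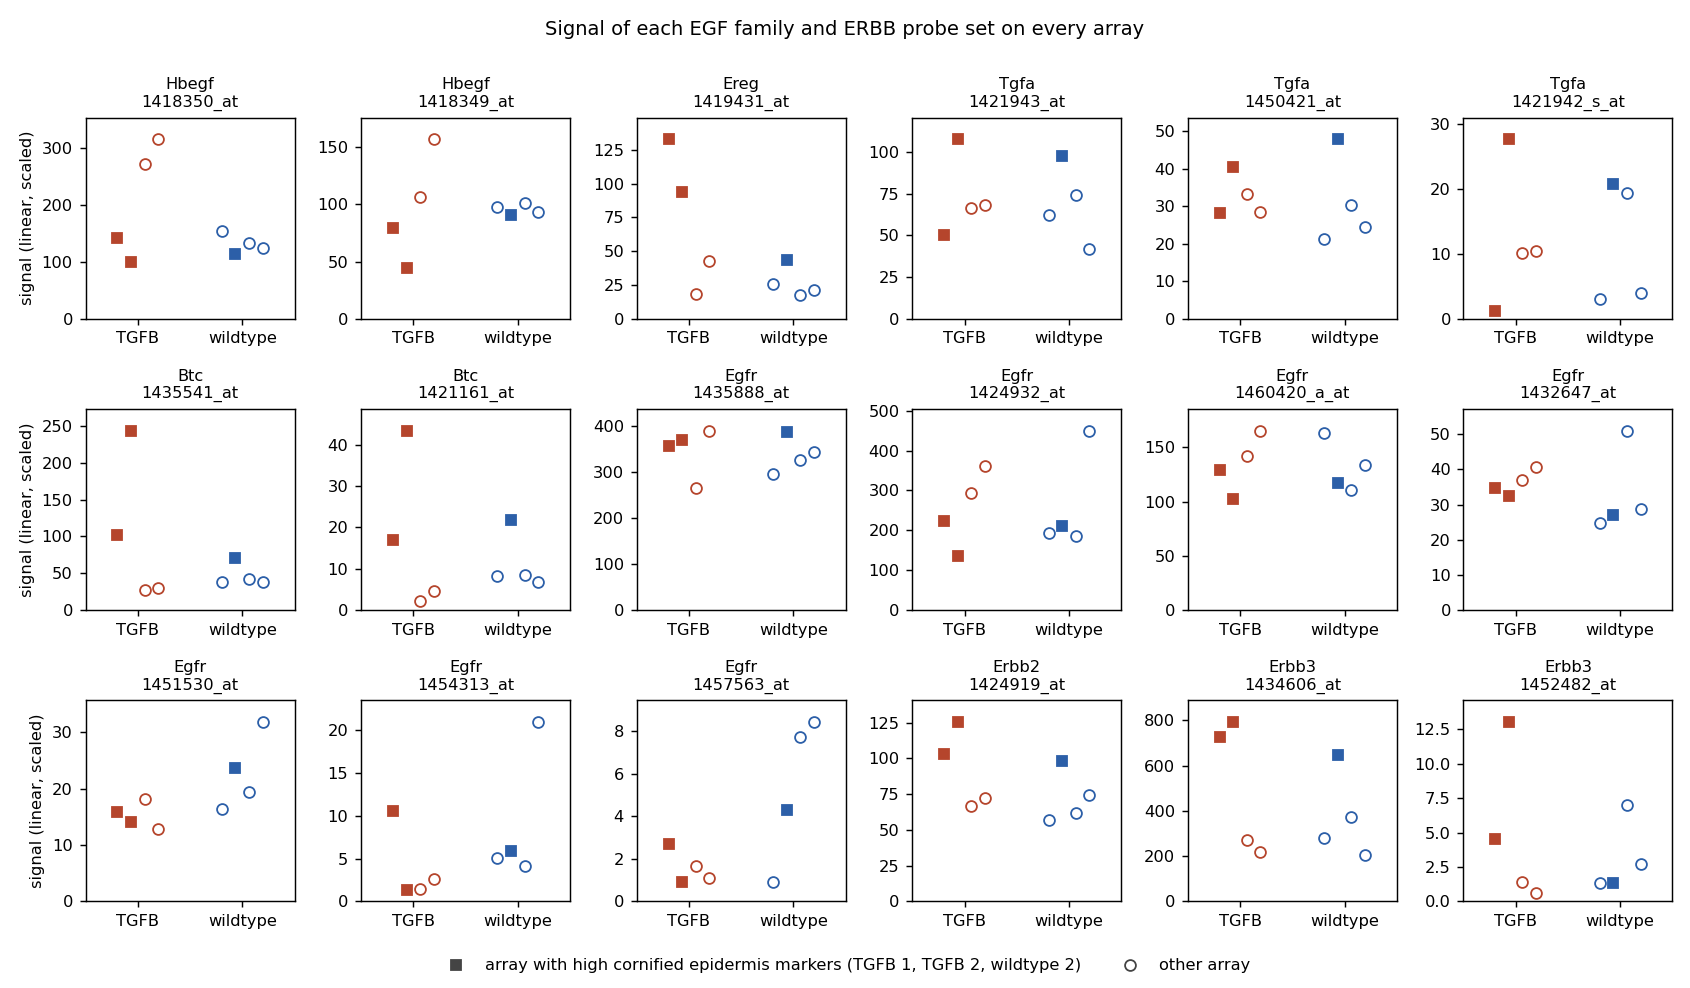
Signal of each of the 18 probe sets (linear axis, scaled intensity) on the 4 TGFB and 4 wildtype arrays, 1 point per array. Squares mark TGFB 1, TGFB 2 and wildtype 2, the arrays with high cornified epidermis markers. The groups overlap in every panel, and for Btc, Erbb2 and the brighter Erbb3 probe set the squares lie above all circles.

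Among the ligands, Hbegf, which encodes heparin-binding EGF, was brightest on 2 TGFB arrays. Probe set 1418350_at gave signals of 142.5, 99.97, 271 and 315 in TGFB 1 to 4, against 153, 113.5, 132 and 124 in wildtype 1 to 4. TGFB 3 and TGFB 4 lay above every wildtype array, TGFB 1 within their range and TGFB 2 below it. The mean was 7.68 ± 0.71 in TGFB and 7.19 ± 0.16 in wildtype arrays (SD, n = 4 each), a log2 difference of 0.48 (SE 0.32, 95% interval -0.23 to 1.20, limma adjusted p = 0.902). With 1 array left out at a time it ran from 0.25 without TGFB 4, and 0.32 without TGFB 3, to 0.76 without TGFB 2. The other Hbegf probe set, 1418349_at, matches the same transcript record and gave 79.8, 44.1, 106.5 and 157 in TGFB arrays against 97.4, 90.9, 101 and 93.6 in wildtype arrays. TGFB 3 and TGFB 4 were again the highest arrays, but TGFB 1 and TGFB 2 were the lowest, and the difference was -0.087 (SE 0.28, limma adjusted p = 0.980).

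The Hbegf values also moved when the arrays with high cornified and low lens transcripts were left out. Without TGFB 1, TGFB 2 and wildtype 2, the difference for 1418350_at was 1.02 (SE 0.20, 95% interval 0.54 to 1.50, 2 against 3 arrays, unadjusted p = 0.00197, limma adjusted p = 0.987). With the mean of the cornified markers as a covariate it was 0.74 (SE 0.21, unadjusted p = 0.00627, limma adjusted p = 0.727). Of all 45037 probe sets, 2084 had an unadjusted limma p under 0.05 without the 3 arrays and 2987 with the covariate. For 1418349_at the sign turned, to 0.36 (SE 0.22) without the 3 arrays and 0.099 (SE 0.23) with the covariate. On those 5 arrays both Hbegf probe sets were higher in TGFB than in wildtype without overlap, which holds for 2 of the 18 probe sets (11.1%) and for 11.0% of all probe sets. Among the 3 cornified arrays, the mean of TGFB 1 and TGFB 2 minus wildtype 2 was 0.066 for 1418350_at and -0.49 for 1418349_at, with no test possible against 1 array.

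Ereg, the epiregulin gene, had the highest difference of the 18 probe sets. Its signals were 133, 93.5, 17.9 and 42.6 in TGFB arrays, against 25.9, 43.6, 17.8 and 21.4 in wildtype arrays. TGFB 1 and TGFB 2 stood above all wildtype arrays, while TGFB 3 and TGFB 4 lay within the wildtype range. The mean was 6.24 ± 0.95 in TGFB and 5.40 ± 0.36 in wildtype arrays (SD, n = 4 each), a difference of 0.84 (SE 0.42, 95% interval -0.12 to 1.80, limma adjusted p = 0.872). The highest wildtype value was that of wildtype 2, the wildtype array with cornified markers. The difference was 0.25 (SE 0.28, limma adjusted p = 0.987) without the 3 cornified arrays and 0.49 (SE 0.25, limma adjusted p = 0.776) with the covariate. Among the 3 cornified arrays alone, TGFB 1 and TGFB 2 averaged 1.10 above the single wildtype array, which allows no test. With 1 array left out at a time, the difference between the groups ran from 0.51 without TGFB 1 to 1.23 without TGFB 3.

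Btc, the betacellulin gene, was also highest on the 3 cornified arrays. Probe set 1435541_at gave 102, 244, 26.5 and 29.5 in TGFB arrays, against 37.4, 70.9, 41.7 and 37.6 in wildtype arrays. The highest 3 of the 8 arrays were TGFB 1, TGFB 2 and wildtype 2, and the lowest were TGFB 3 and TGFB 4, so the TGFB group held both ends of the range. The mean was 6.45 ± 1.24 in TGFB and 5.94 ± 0.34 in wildtype arrays (SD, n = 4 each), a difference of 0.51 (SE 0.53, 95% interval -0.69 to 1.71, limma adjusted p = 0.927). TGFB 2 decided that value, which was -0.012 without it. Without the 3 cornified arrays the difference was -0.32 (SE 0.18, limma adjusted p = 0.987), and with the covariate it was 0.054 (SE 0.29, limma adjusted p = 0.985). Within those 3 arrays, TGFB 1 and TGFB 2 averaged 1.01 above wildtype 2, which allows no test. The dimmer probe set 1421161_at gave 16.9, 43.4, 2.17 and 4.57 in TGFB arrays and 8.12, 21.8, 8.49 and 6.72 in wildtype arrays, with the same 3 arrays highest. Its difference was 0.13 (SE 0.36) over all arrays and -0.30 (SE 0.18) without the cornified ones. On those 5 arrays the 2 Btc probe sets and Egfr 1454313_at were lower in TGFB than in wildtype without overlap, 3 of 18 (16.7%), against 9.09% of all probe sets.

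None of the 3 probe sets of Tgfa, which encodes transforming growth factor alpha, passed the threshold. The brightest, 1421943_at, gave 50.1, 108, 66.7 and 68.2 in TGFB arrays and 62.5, 97.8, 74.5 and 41.7 in wildtype arrays. TGFB 2 and wildtype 2 were the highest arrays and the ranges overlapped almost fully. The difference was 0.072 (SE 0.25, 95% interval -0.49 to 0.64, limma adjusted p = 0.983). Probe set 1450421_at ran from 28.1 to 40.4 in TGFB arrays and from 21.1 to 47.9 in wildtype arrays, with a difference of 0.073 (SE 0.19). Probe set 1421942_s_at was dim, below a signal of 16 on 5 of 8 arrays, with a difference of 0.020 (SE 0.32).

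Among the receptors, Egfr was nearly level across the arrays in its brightest probe set. That probe set, 1435888_at, gave 357, 369, 264 and 389.5 in TGFB arrays, against 296, 387, 325 and 342 in wildtype arrays. No array stood apart, and the values spanned 0.53 on the log2 scale. The mean was 8.48 ± 0.24 in TGFB and 8.46 ± 0.15 in wildtype arrays (SD, n = 4 each), a difference of 0.021 (SE 0.16, limma adjusted p = 0.993). Its 95% interval, -0.34 to 0.38, bounds the difference at 0.791-fold to 1.30-fold on the offset scale.

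The other 6 Egfr probe sets did not share 1 pattern. Probe set 1424932_at gave 224, 136, 294 and 360 in TGFB arrays and 192, 212, 186 and 450 in wildtype arrays. Wildtype 4, the array with the highest keratocyte sum and the highest Gapdh ratio, was the brightest, and TGFB 3 and TGFB 4 came next. The part of that array's tissue makeup or RNA decay in its value was not tested. The difference was -0.019 (SE 0.34) over all arrays and 0.26 without wildtype 4. Probe set 1460420_a_at ran from 103 to 165 in TGFB arrays and from 110.5 to 163 in wildtype arrays (difference 0.034, SE 0.18), and 1432647_at from 32.4 to 40.8 in TGFB arrays and from 24.8 to 51.0 in wildtype arrays (difference 0.12, SE 0.18). The 3 dimmest had lower means in TGFB arrays, with differences of -0.30 (SE 0.15) for 1451530_at, -0.30 (SE 0.23) for 1454313_at and -0.26 (SE 0.15) for 1457563_at. Their limma adjusted p lay between 0.872 and 0.916. Probe set 1457563_at was below a signal of 16 on all 8 arrays, 1454313_at on 7 and 1451530_at on 3. Probe sets 1424932_at and 1451530_at match 1 transcript record, and 1432647_at and 1454313_at match another, so the 7 are not independent.

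Erbb2, the ligandless co-receptor gene, gave signals of 103, 125.5, 66.6 and 72.5 in TGFB arrays, against 57.2, 98.2, 61.7 and 74.1 in wildtype arrays. TGFB 1, TGFB 2 and wildtype 2 were the highest arrays (98.2 to 125.5, against 57.2 to 74.1 on the other 5). The difference between the groups was 0.27 (SE 0.22, 95% interval -0.22 to 0.76, limma adjusted p = 0.920), 0.095 (SE 0.19) without these 3 arrays and 0.095 (SE 0.14) with the covariate. With 1 array left out at a time it ran from 0.13 without TGFB 2 to 0.40 without wildtype 2.

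Erbb3, the neuregulin receptor gene, split the same way by a wider margin. Probe set 1434606_at gave 725, 793, 271 and 219 in TGFB arrays, against 279, 645, 372 and 205 in wildtype arrays. The 3 cornified arrays lay between 645 and 793 and the other 5 between 205 and 372, while the groups overlapped throughout. The mean was 8.81 ± 0.92 in TGFB and 8.49 ± 0.67 in wildtype arrays (SD, n = 4 each), a difference of 0.32 (SE 0.47, 95% interval -0.75 to 1.38, limma adjusted p = 0.950). It was -0.18 (SE 0.28) without the 3 arrays and -0.12 (SE 0.18) with the covariate. Single arrays moved it from 0.036 without TGFB 2 to 0.63 without TGFB 4. Probe set 1452482_at was below a signal of 16 on all 8 arrays (difference 0.10, SE 0.20). The same 3 arrays had the lowest lens marker sums. They also had the highest Trp63 (834.5 to 1375, against 139 to 391 on the other 5) and Krt5 (5830 to 6844, against 2302 to 5692). The rest of the corneal and basal epithelial list did not split this way. The 3 cornified arrays also had the lowest Kera (2073 to 2538, against 3307 to 8110) and Dct (1354 to 4673, against 5664 to 8080). The rest of the keratocyte and pigment cell lists did not split this way. These 2 settings therefore cannot tell cornified epidermis transcripts from low lens, Kera or Dct transcripts or from high Trp63 and Krt5.

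**Figure D2:**
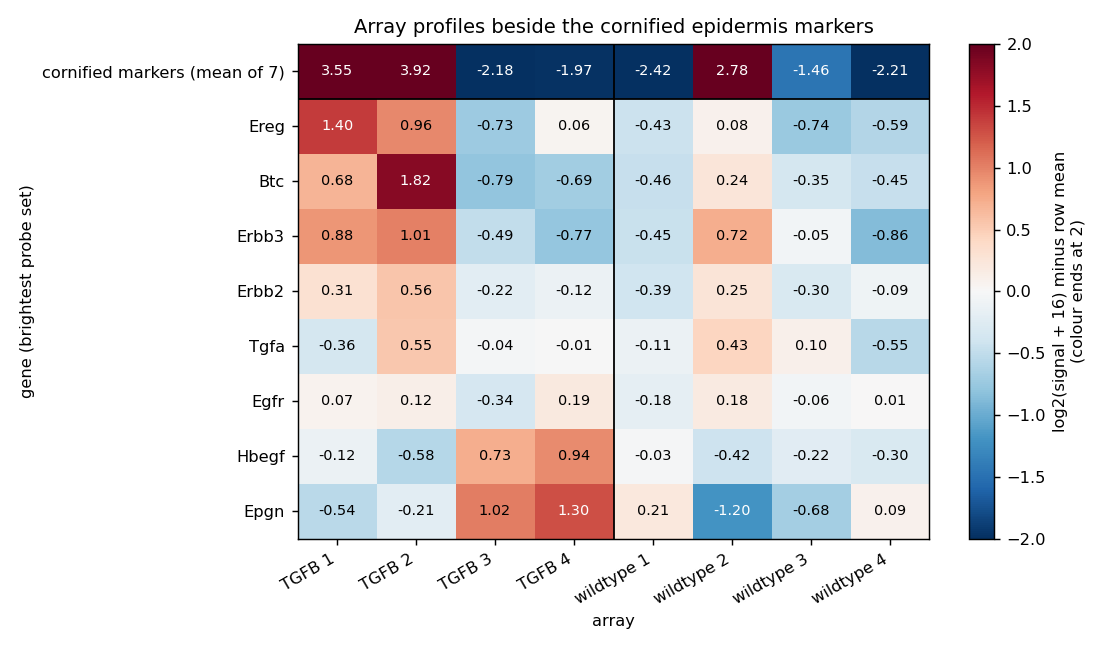
Centred log2(signal + 16) of the brightest probe set of each gene (rows) on the 4 TGFB and 4 wildtype arrays (columns), below the mean of the 7 cornified epidermis markers. Colour and printed value give the distance from the row mean, with colours ending at 2. Ereg, Btc, Erbb3 and Erbb2 are highest in TGFB 1, TGFB 2 and wildtype 2, and Hbegf and Epgn in TGFB 3 and TGFB 4.

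**Figure D3:**
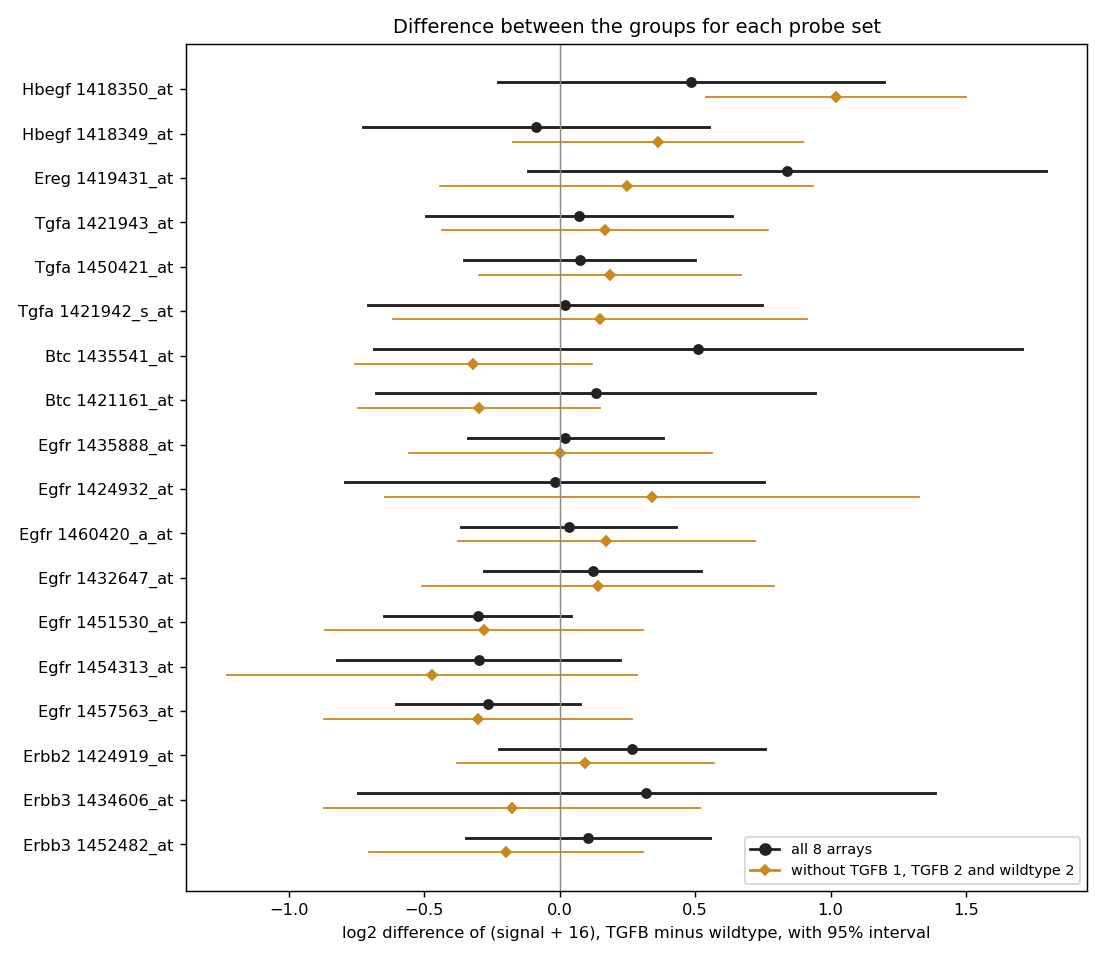
Log2 difference of (signal + 16), TGFB minus wildtype, for each probe set, with its 95% interval. Circles use all 8 arrays and diamonds leave out TGFB 1, TGFB 2 and wildtype 2. With all arrays every interval spans 0, and with 5 arrays only that of Hbegf 1418350_at does not. In the 5-array fit, 2084 of all 45037 probe sets had an unadjusted limma p under 0.05, which is the same criterion. None passed the adjusted threshold.

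Ereg and Btc were the 2 genes whose brightest probe set spanned over 2 log2 units across the arrays, so the genes with the most similar profiles were sought for them among 13171. Likeness was the root mean square difference of centred log2 values over the 8 arrays. For Ereg the closest were Rgn (0.189), Klf4 (0.224) and Slc10a6 (0.245). Klf4, which encodes a transcription factor of differentiating surface epithelium, gave 2392, 2893, 891 and 1263 in TGFB arrays and 962, 1496, 857 and 880 in wildtype arrays. For Btc the closest were Mboat2 (0.143), Lrrc28 (0.159) and Bicdl2 (0.161). These genes were picked for their likeness, so a shared shape over the arrays is no separate evidence.

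The other genes of the family showed no call either, with 4 of 7 higher and 3 lower in mean. Epgn, which encodes the EGFR ligand epigen, gave 39.7, 53.8, 148 and 182.5 in TGFB arrays and 77.6, 19.3, 34.4 and 70.2 in wildtype arrays. As for Hbegf, TGFB 3 and TGFB 4 were the highest arrays. Its difference was 0.78 (SE 0.47, limma adjusted p = 0.894), and ran from 0.48 without TGFB 4 to 1.10 without TGFB 1. It was 1.28 (SE 0.32, unadjusted p = 0.00639, limma adjusted p = 0.987) without the 3 cornified arrays and 1.21 (SE 0.21, unadjusted p = 0.000274, limma adjusted p = 0.725) with the covariate. In these fits 2084 and 2987 of all 45037 probe sets had an unadjusted limma p under 0.05. Egf ran from 38.8 to 47.4 in TGFB arrays and from 17.9 to 44.9 in wildtype arrays, a difference of 0.35 (SE 0.19, limma adjusted p = 0.887). For the neuregulin gene Nrg4 the signals of 0.558 to 7.13 in TGFB arrays lay below the 9.40 to 10.8 of wildtype arrays (difference -0.37, SE 0.15, limma adjusted p = 0.837), but all its signals were below 16. Over all genes, 2.45% were lower in TGFB arrays without overlap. Nrg1, Erbb4 and Nrg4 were below 16 on all 8 arrays, Nrg3 on 7 and Nrg2 on 3. Their differences were 0.13 (SE 0.24) for Nrg1, -0.044 (SE 0.19) for Nrg2, 0.29 (SE 0.21) for Nrg3 and -0.14 (SE 0.14) for Erbb4.

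The genes around the receptors were described by 4 lists, each gene by its brightest probe set, and none of the members passed the threshold. Over all 18193 genes the median difference was -0.014, 47.4% had a higher mean in TGFB arrays, and 2.69% were higher and 4.54% lower at an unadjusted p under 0.05. Of 9 shedding genes, 4 were higher and 5 lower in mean (median -0.0085). The metalloprotease genes Adam12 and Adam17 had differences of 0.44 (SE 0.18) and -0.26 (SE 0.16), and the inactive rhomboid gene Rhbdf1 0.38 (SE 0.21). Of 13 measured signal transducers among 17 listed, 8 were higher and 5 lower (median 0.036), with Plcg1 at 0.18 (SE 0.14), Sos2 at 0.22 (SE 0.19) and Gab1 at -0.10 (SE 0.12). No transducer had an unadjusted p under 0.05.

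Feedback inhibitors and genes that respond to ERK, the kinase below these receptors, lay higher in mean. Of 16 inhibitors, 13 were higher and 3 lower (median 0.13), with 2 higher at an unadjusted p under 0.05. These 2 were Errfi1, whose product binds and inhibits EGFR, and the ERK phosphatase gene Dusp5. Errfi1 gave 931, 839, 1145 and 1314 in TGFB arrays and 545, 675, 536 and 971 in wildtype arrays, so that only wildtype 4 overlapped the TGFB range (difference 0.64, SE 0.22, limma adjusted p = 0.837). Dusp5 gave 22.4, 45.5, 98.6 and 95.4 in TGFB arrays and 33.8, 4.22, 1.45 and 2.19 in wildtype arrays, so that only wildtype 1 overlapped (difference 1.64, SE 0.43, limma adjusted p = 0.823). Spry4 had a difference of -0.33 (SE 0.21). The inhibitor list was also chosen with earlier results of these data known, so its direction is not independent evidence.

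Of 15 ERK-responsive genes, 14 were higher and 1 lower (median 0.55), with 4 higher at an unadjusted p under 0.05. Egr2, an early growth response factor, gave 284.5, 177.5, 158 and 214.5 in TGFB arrays and 63.7, 120, 37.1 and 75.8 in wildtype arrays, without overlap, as were 1.49% of all genes in this direction. Its difference was 1.36 (SE 0.29, limma adjusted p = 0.822). Fos had a difference of 0.78 (SE 0.23, limma adjusted p = 0.834) and the urokinase receptor gene Plaur one of 0.87 (SE 0.33, limma adjusted p = 0.837). The list was drawn up with a higher mean of immediate-early genes in these arrays already known, so its direction is not independent evidence.

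**Figure D4:**
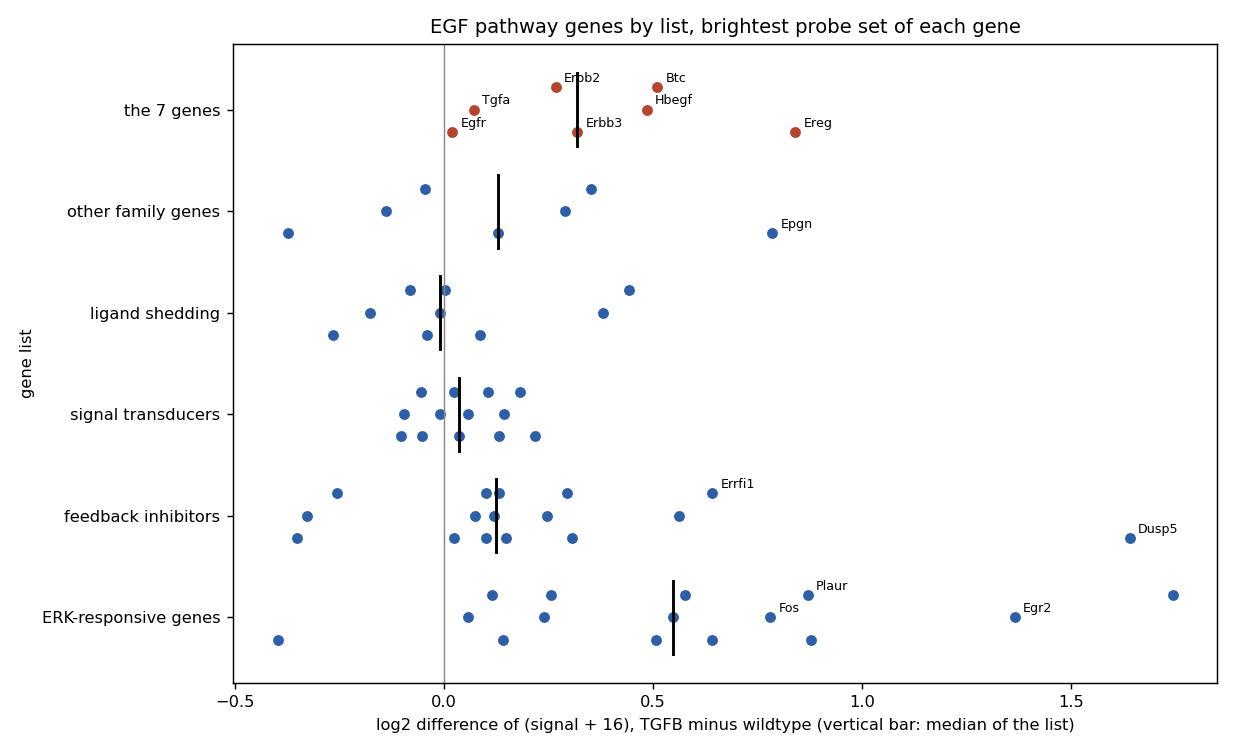
Log2 difference of (signal + 16), TGFB minus wildtype, for the brightest probe set of each gene (points), by gene list. Vertical bars are list medians, from -0.0085 for ligand shedding to 0.55 for ERK-responsive genes, and no point passes the threshold.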

How the data were processed

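RNA of mouse corneas was measured on 8 1-colour arrays. The deposited table holds linear signal intensities of 45101 probe sets, with tool and scaling not given in the sources used here. Every deposited intensity column has a 2% trimmed mean of 150, so no further normalization was applied. The number of arrays limits the precision.

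After 64 control probe sets were left out, log2(signal + 16) was fitted with limma 3.58.1 (R 4.3.3, lmFit and eBayes with no trend), with Benjamini-Hochberg adjustment over 45037 probe sets. A platform annotation of 2016 gave 1 symbol to 34945 probe sets, several to 932 and none used here to 9160. Of the named ones, 34741 were matched by Entrez ID to RefSeq (GRCm38.p6). Where 1 probe set stands for a gene, it is the one with the highest mean. Arrays are numbered in the order of their records within a group.

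Members and lists were chosen with earlier results of these data known. The text names all members and other family genes, and per pathway list the 3 genes with the smallest p. The alternatives were other offsets, normalizations, filters, units, variance models, array weights, a covariate and arrays left out.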

Additional observations from a re-analysis of the deposited data

Results flagged for a closer look

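A value far from the other 3 of its group was found in 7 of 74 groups of 4 arrays tested (37 probe sets in 2 groups), where chance gives about 1 in 20. The score is the gap to the nearest array divided by the range of the group on the log2 scale, set against Dixon's 95% critical value.

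Both Btc probe sets stood apart in wildtype 2, the wildtype array with high cornified epidermis markers. Probe set 1435541_at had a signal of 70.9 there, against 37.4 to 41.7 in the other wildtype arrays (score 0.841), and 1421161_at had 21.8 against 6.72 to 8.49 (score 0.852). Egfr stood apart in wildtype 4, at 450 against 186 to 212 for 1424932_at (score 0.855) and at 20.9 against 4.13 to 5.89 for 1454313_at (score 0.862). Dusp5 had 33.8 in wildtype 1, against 1.45 to 4.22 in the other wildtype arrays (score 0.860). The remaining values were dim: Nrg3 had 19.4 in TGFB 3 against 9.44 to 10.4 (score 0.890), and Erbb4 had 7.11 in wildtype 1 against 0.750 to 1.66 (score 0.835).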

How the results depend on the processing

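No paired analysis was possible because the labels give the arrays of the 2 groups no shared replicate numbers. Of 20 alternative settings, 17 to 20 could be run for each of the 18 probe sets, since filters and 1 value per gene leave some out. None passed the threshold, and 7 of the 18 had the same sign in every setting run for them. The count of all probe sets past the threshold ran from 0 to 2 over single arrays left out, with 2 without wildtype 4, and was 0 in the other settings. With array weights the differences were -0.15, -0.082 and -0.23 for Tgfa 1421943_at, 1450421_at and 1421942_s_at, -0.10 for Btc 1421161_at, -0.035 and 0.20 for Egfr 1435888_at and 1424932_at, -0.057 for Erbb3 1434606_at and 0.020 for Nrg2. With the cornified covariate they were 0.099 for Hbegf 1418349_at, -0.033, -0.024 and -0.088 for the Tgfa probe sets in the same order, -0.17 for Btc 1421161_at, -0.044 and 0.18 for the same Egfr probe sets, -0.12 for Erbb3 1434606_at and 0.046 for Nrg2. Without the 3 cornified arrays they were 0.36 for Hbegf 1418349_at, -0.32 and -0.30 for Btc 1435541_at and 1421161_at, 0.34 for Egfr 1424932_at, -0.18 and -0.20 for Erbb3 1434606_at and 1452482_at, 0.11 for Nrg2 and 0.023 for Spry4. An offset of 1 gave -0.031 for Tgfa 1421942_s_at and -0.028 for Btc 1421161_at. Median centring gave -0.0092 for Tgfa 1421942_s_at and -0.0082 for Egfr 1435888_at. The mean of all probe sets gave -0.10 for Egfr and 0.050 for Nrg2. The cause of these turns was not tested.

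Over single arrays left out, the sign turned within these ranges: Hbegf 1418349_at -0.33 to 0.18, Tgfa 1421943_at -0.10 to 0.23, Tgfa 1450421_at -0.029 to 0.23, Tgfa 1421942_s_at -0.21 to 0.23, Btc 1435541_at -0.012 to 0.86, Btc 1421161_at -0.21 to 0.36, Egfr 1435888_at -0.040 to 0.14, Egfr 1424932_at -0.21 to 0.26, Egfr 1460420_a_at -0.061 to 0.14, Erbb3 1452482_at -0.067 to 0.20, Nrg1 -0.0081 to 0.27 and Nrg2 -0.19 to 0.087. Probe sets with signals below 16 carry little information on this scale.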
